A study of Mus musculus with 8 samples.

Results

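The mitochondrial ribosomal protein genes are the nuclear genes for the proteins of the ribosome inside mitochondria. They were chosen by name, as the protein-coding genes whose symbol begins with Mrpl or Mrps followed by a number. The symbol rule used no expression value, but the family was picked with earlier results of these data known. The deposited table held 76 such genes among its 17127 genes, 47 with a large subunit symbol (Mrpl) and 29 with a small subunit symbol (Mrps). GENCODE lists 78 of them in the mouse, and Mrpl23 and Mrpl53 are not analysed here. The 76 genes lie on 17 chromosomes, with 11 on chromosome 11, 8 on chromosome 17 and 0 on X or Y.

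RNA-seq had been done on whole testes of mice aged 4 months, 1 library per mouse. The wild-type group had 4 libraries, and the mutant group had 3 libraries (mutants 1, 2 and 4) of mice homozygous for frameshift deletions made with CRISPR-Cas9 in exon 19 of Iqch, a testis gene with an IQ motif that binds calmodulin. The labels call these mice Iqch-/- or Iqch knockout, but the deletion leaves a truncated reading frame, 2 edited lines were kept, and the study draws its RNA-seq coverage of the gene from the line named mu7, while the labels name no line for any library. The study reported that mutant testes lacked the full-length protein on Western blots and IQCH by immunofluorescence. A supplementary legend of the study, however, says that the mutants expressed the protein. The founders were B6CBAF1 zygotes, and the eighth listed sample, mutant 3, is not analysed here.

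A mitochondrial ribosome translates the few mRNAs of mitochondrial DNA, which all encode core subunits of the respiratory chain and the ATP synthase. The small subunit binds the mRNA and decodes it, and the large subunit joins the amino acids and threads the chain out to the inner membrane. All of its proteins are made in the cytosol and imported. Many have a counterpart in bacteria, and the others are found in mitochondria alone. In the testis, mitochondria are remodelled as germ cells mature, and in sperm they wrap the midpiece of the tail.

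Depth was even, with 32064384 to 37551057 reads per library, so 1 read was worth 0.0266 to 0.0312 CPM, the unit of the table, which gives the reads of a gene out of every 1000000 of its library. Iqch itself fell from 207.8 ± 11.3 CPM (SD, n = 4) in wild type to 67.26 ± 2.25 (SD, n = 3) in the mutants, a log2 fold change of -1.63 ± 0.05 (SE), with no overlap between the groups (two-sided exact permutation test over 35 splits, p = 0.02857, the smallest these splits can give). Markers of other cell types differed between the groups too. The summed CPM of 7 Leydig cell markers ranged from 1021 to 1224 in wild type and from 4296 to 4472 in the mutants, and 6 were called higher. For 9 Sertoli markers the ranges were 1206 to 1307 and 2513 to 2612, with 9 called higher, and for 6 macrophage markers 51.9 to 63.0 and 201.3 to 233.3, with 6 called higher. The 8 elongating spermatid markers were all called lower, at 23880 to 25390 CPM in wild type and 15160 to 17410 in the mutants. Among 7 round spermatid markers 4 were called lower (1234 to 1312 CPM in wild type, 1081 to 1151 in the mutants), among 8 spermatogonial markers 5 were called higher (145.6 to 158.4 and 202.5 to 231.3), and among 8 spermatocyte markers 1 was called in each direction. Of 4 peritubular and 4 endothelial markers, 1 and 2 were called higher. With size factors, an alternative scaling of the libraries given with the calls of the members, 7 Sertoli markers and 1 spermatogonial marker were called higher, and 7 round spermatid and 4 spermatocyte markers lower (0 spermatocyte markers higher), while the counts of the other lists were the same. No marker was at 0 in any library. In whole testis, fewer cells of a type and less RNA per cell cannot be told apart, and the part of these markers in the values that follow was not tested.

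The 5 stretches printed here are the start regions of the small subunit gene and the large subunit genes with the largest higher values (Mrps6, Mrpl34 and Mrpl27) and of the genes with the largest lower values (Mrpl15 and Mrpl54). Each runs 5′ to 3′ on the strand of its gene in GRCm39, with 150 bases before the start of the canonical transcript and 30 from it on. Capitals mark the motif of the nuclear respiratory factor NRF1 (GCGCA and GCGC with 1 base of any kind between them), the letters CCGGAAG, the motif of ETS factors such as GABPA, CACGTG, the E-box, and TTCCCAGAA, letters that were searched only after the sequences had been seen. NRF1 and GABPA are known regulators of nuclear genes for mitochondrial proteins.
Mrps6 (chr16:91854815-91854994, plus strand): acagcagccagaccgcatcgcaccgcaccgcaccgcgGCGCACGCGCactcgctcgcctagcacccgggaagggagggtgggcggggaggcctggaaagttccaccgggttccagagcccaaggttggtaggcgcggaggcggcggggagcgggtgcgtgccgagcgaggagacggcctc
Mrpl34 (chr8:71917405-71917584, plus strand): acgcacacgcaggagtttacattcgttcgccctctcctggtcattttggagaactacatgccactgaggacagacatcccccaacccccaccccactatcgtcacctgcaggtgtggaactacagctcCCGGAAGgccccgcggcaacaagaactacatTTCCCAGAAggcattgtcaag
Mrpl27 (chr11:94544434-94544613, plus strand): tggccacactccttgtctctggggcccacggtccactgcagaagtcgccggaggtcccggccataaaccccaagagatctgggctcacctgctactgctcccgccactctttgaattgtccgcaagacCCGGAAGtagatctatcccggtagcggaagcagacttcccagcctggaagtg
Mrpl15 (chr1:4855933-4856112, minus strand): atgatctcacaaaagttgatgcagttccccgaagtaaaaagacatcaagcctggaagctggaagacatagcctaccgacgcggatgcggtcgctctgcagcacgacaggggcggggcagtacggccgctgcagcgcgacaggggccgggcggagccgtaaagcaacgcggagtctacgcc
Mrpl54 (chr10:81102739-81102918, minus strand): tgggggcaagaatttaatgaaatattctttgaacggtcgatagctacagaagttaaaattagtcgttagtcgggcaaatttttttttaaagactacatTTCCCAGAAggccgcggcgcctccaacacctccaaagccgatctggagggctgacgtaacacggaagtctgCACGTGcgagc
The stretch of Mrps6 holds 1 NRF1 motif, and those of Mrpl34 and Mrpl27 each hold 1 ETS motif at the same distance before the start. That of Mrpl15 holds none of the letters searched.

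Over 300 bases (250 before the start and 50 from it on, both strands), 23 of the 76 members (30.3%) held CCGGAAG, beside 14.3% of the 13784 protein-coding genes tested. The NRF1 motif was found in 12 members (15.8%), beside 8.61%, and AAGATGG, the motif of YY1, in 9 (11.8%), beside 6.34%. The cAMP response element TGACGTCA was found in 2 (2.63%) beside 3.09%, the E-box in 5 (6.58%) beside 9.85%, and TTCCCAGAA in 3 (3.95%) beside 1.38%. TTCCCAGAA was searched after it was seen in the stretches of Mrpl34 and Mrpl54, which are among those 3. No excess can therefore be read from its share. Base composition was alike, with a median GC content of 57.2% in the members and 57.7% in the protein-coding genes. The ETS motif was in 14 of 36 members called higher (38.9%) and 7 of 35 members not called, and the NRF1 motif in 8 and 3 of them (22.2% and 8.57%). Of the 5 members called lower, 2 held the ETS motif and 1 the NRF1 motif. The median GC content was 57.8% in the members called higher, 56.3% in those called lower and 54.0% in those not called. These matches are a description of the letters in the window, and no difference between these shares was tested.

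The question was whether these mRNAs differed between mutant and wild-type testis, and whether the large and small subunits differed alike. Of the 76 members, 36 rose, 5 fell and 35 were not called (limma on log2(CPM + 0.1), Benjamini-Hochberg adjustment over 17126 genes, FDR 0.01). That is 47.4% higher and 6.58% lower, beside 36.3% higher and 14.2% lower among all genes tested and 41.5% and 12.7% among protein-coding genes. The members as a family were therefore close to the background of a testis in which many genes were called. No member passed a 2-fold change, which 10% of all genes did at the same FDR. The members' log2 fold changes ran from -0.41 to 0.83, with a median of 0.22 beside 0.12 for all genes and 0.18 for protein-coding genes.

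How the libraries are scaled moved these counts. With median-of-ratios size factors in place of CPM, the factors were 0.957 to 1.07, the median of all genes shifted by 0.13 (log2) to -0.01, and the members' median became 0.09. Then 14 members were called higher and 10 lower (18.4% and 13.2%), beside 27% and 25.1% of all genes and 31.1% and 23.6% of protein-coding genes. The 14 were all among the 36, the 5 lower members stayed called, and Mrpl1, Mrpl12, Mrpl20, Mrpl39 and Mrpl47 were called lower by size factors alone. In every fit with 1 library left out, 26 of the 36 higher and 2 of the 5 lower members kept their CPM call. The 14 that rose under both scalings also passed with each library left out in turn. They were 9 small subunit genes, Mrps5, Mrps6, Mrps7, Mrps17, Mrps21, Mrps23, Mrps24, Mrps27 and Mrps34, and 5 large subunit genes, Mrpl19, Mrpl27, Mrpl34, Mrpl50 and Mrpl58.

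**Figure D1:**
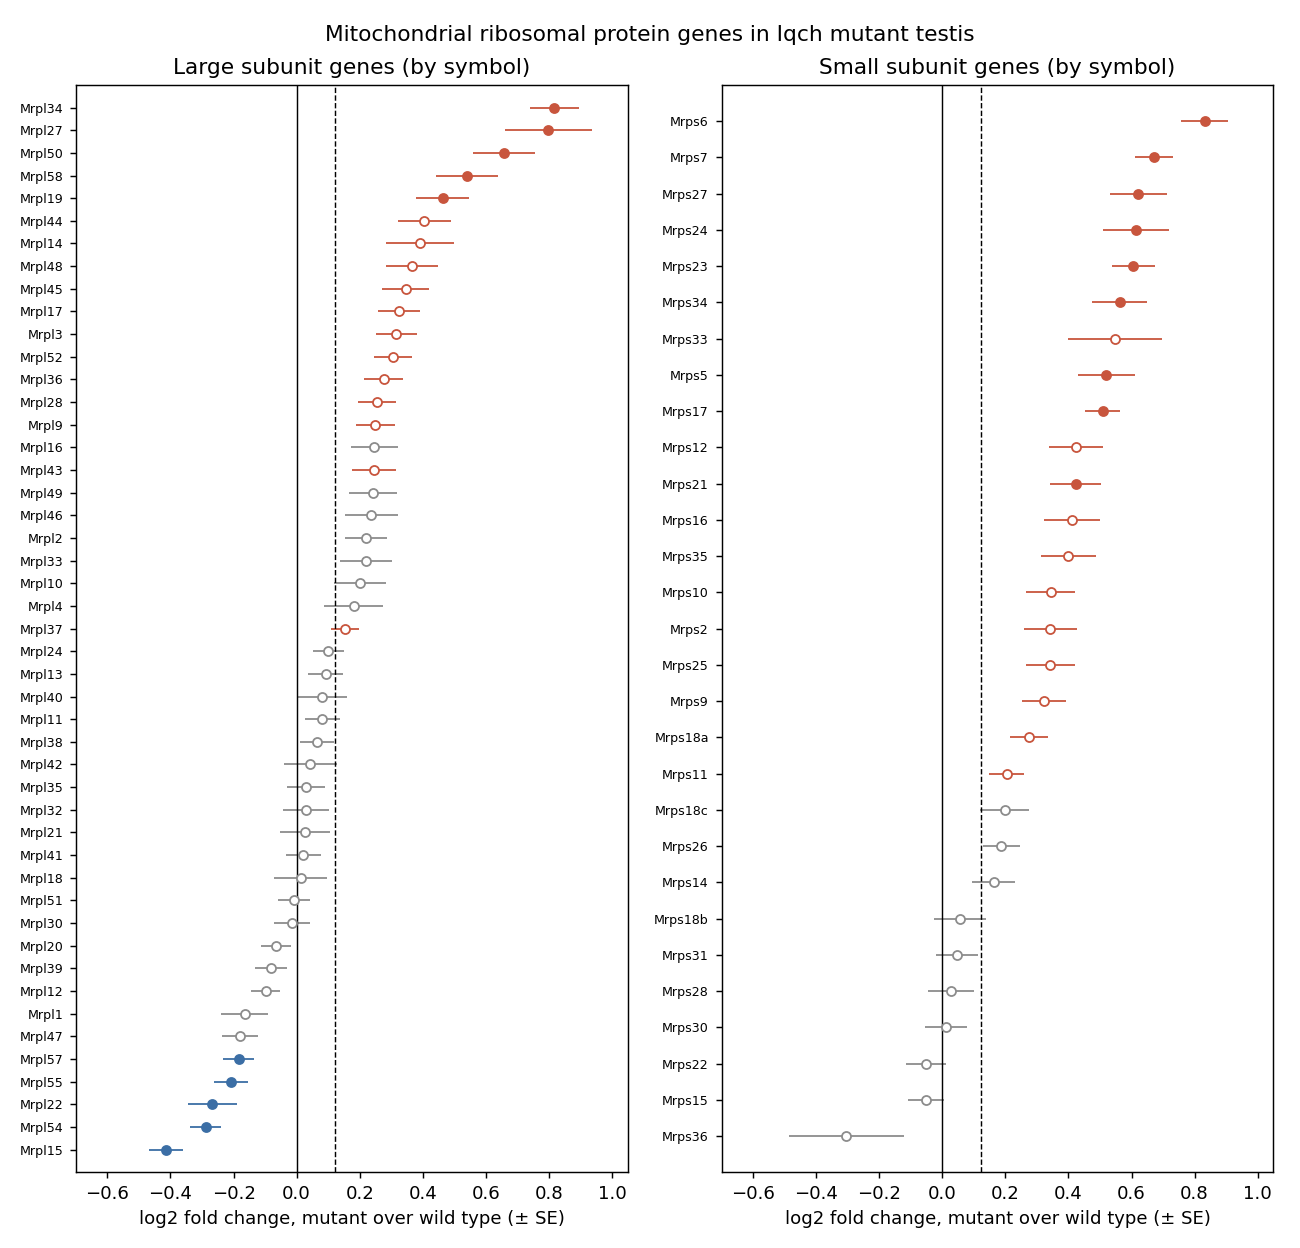
The log2 fold change of each of the 76 members (points, with the standard error as bars), mutant over wild type, for the large and the small subunit, with red for called higher, blue for called lower and grey for not called, filled where the call also held with size factors, and the dashed line at the median of all genes tested (0.12). The small subunit genes sit mostly to the right of that line and the 5 blue points are all large subunit genes.

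By symbol, 19 of 29 small subunit members rose and 0 fell (10 not called), a share of 65.5% higher and a median log2 fold change of 0.34. Among protein-coding genes 41.5% were called higher and 12.7% lower, with a median of 0.18. Of the 47 large subunit members 17 rose, 5 fell and 25 were not called, 36.2% higher and 10.6% lower, with a median of 0.15. With size factors the counts were 9 higher (31.0%) and 0 lower for the small subunit and 5 higher (10.6%) and 10 lower (21.3%) for the large. Protein-coding genes were then higher in 31.1% and lower in 23.6%. In 22 small subunit genes every mutant was above every wild type, and in 0 every mutant was below. For the large subunit these numbers were 21 and 7. Over all members they were 43 and 7 of 76, beside 42.8% of all genes above and 19.5% below. Because members were chosen with earlier results known, the difference between subunits is given as counts and medians, with no test.

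A few symbols differ from where the protein sits. Mrps30 and Mrps18a encode proteins of the large subunit, and Mrps36 encodes a subunit of the 2-oxoglutarate dehydrogenase complex and not a ribosomal protein. Placed that way, 18 of 49 large subunit genes rose and 5 fell, and 18 of 26 small subunit genes rose and 0 fell, with medians of 0.15 and 0.37. Members whose protein takes the place of a bacterial ribosomal protein and mitochondria-specific members were also counted apart. In the small subunit 12 of 16 conserved genes and 6 of 10 mitochondria-specific genes rose, with medians of 0.38 and 0.37. In the large subunit 9 of 29 conserved genes rose and 3 fell (median 0.10), and 9 of 20 mitochondria-specific genes rose and 2 fell (median 0.20). With size factors 6 conserved and 3 mitochondria-specific small subunit genes were called higher and 0 lower. The balance turned for the large subunit, with 3 conserved genes higher and 7 lower (median -0.03), and 2 mitochondria-specific genes higher and 3 lower (median 0.06).

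The summed CPM of the 29 small subunit genes was 520.3, 515.1, 514.9 and 509.5 in wild type 1 to 4 and 626.2, 633.6 and 635.5 in mutants 1, 2 and 4. Every mutant library was above every wild-type library, with means of 515 ± 4.41 (SD, n = 4) and 632 ± 4.91 (SD, n = 3), a ratio of 1.23. The summed CPM of the 47 large subunit genes was 1631, 1636, 1634 and 1580 in wild type and 1670, 1676 and 1679 in the mutants. Here the mutants were also above every wild type, but by less, with means of 1620 ± 26.9 (SD, n = 4) and 1675 ± 4.58 (SD, n = 3), a ratio of 1.03, and wild type 4 was the lowest. Over all members the sum was 2136 ± 30.4 (SD, n = 4) and 2307 ± 9.45 (SD, n = 3).

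The ratio of the large to the small subunit sum was 3.13, 3.17, 3.17 and 3.10 in wild type 1 to 4. In mutants 1, 2 and 4 it was 2.67, 2.65 and 2.64. The groups did not overlap, and the large subunit share of the sum was 75.9% ± 0.205 (SD, n = 4) in wild type and 72.6% ± 0.102 (SD, n = 3) in the mutants. This ratio does not depend on how the libraries are scaled. The mean log2(CPM + 0.1) of the large members minus that of the small members, which gives each gene the same weight, was 0.79 to 0.83 in wild type and 0.62 to 0.65 in the mutants.

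**Figure D2:**
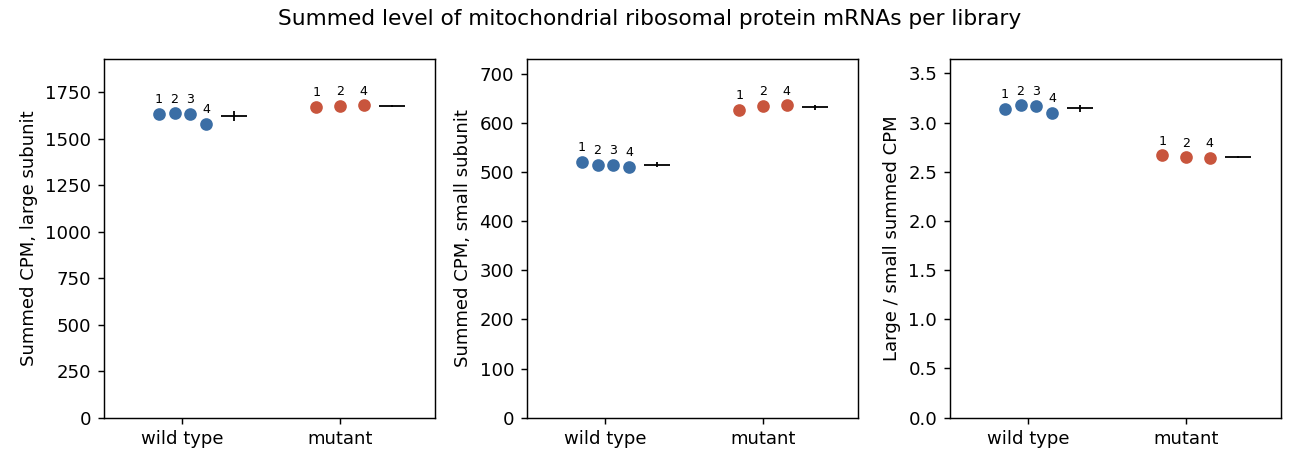
Summed CPM of the 47 large subunit genes (left), of the 29 small subunit genes (middle) and their ratio (right) in each library, with wild types in blue, mutants in red, library numbers above the points and the mean with its SD in black beside them. The small subunit sum is 509.5 to 520.3 in wild type and 626.2 to 635.5 in the mutants, and the ratio is 3.10 to 3.17 and 2.64 to 2.67.

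The members' changes also went with their level, and the subunits differ in level. Per kb of the canonical transcript, wild-type levels ran from 1.68 to 106.0 CPM, and the median was 15.1 CPM for the large and 8.20 CPM for the small subunit genes. The members were also ordered by CPM without length, which follows the number of reads behind a value. By the mean CPM of all 7 libraries, 18 of the 25 lowest members (2.35 to 16.3 CPM) rose and 0 fell. Of the 25 with a middle level (16.8 to 30.3 CPM) 14 rose and 1 fell, and of the 26 highest (30.5 to 102.3 CPM) 4 rose and 4 fell. Protein-coding genes in the same ranges were called higher in 50.1%, 53.2% and 38.7% and lower in 4.85%, 5.76% and 11.6%. With size factors the members called were 9 higher and 0 lower, 5 higher and 1 lower, and 0 higher and 9 lower from the lowest to the highest level. Of the 3875 protein-coding genes in the highest range, 1008 were then higher and 1017 lower.

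The subunits were also set side by side at a like level. Among the 25 lowest members 9 of 13 large and 9 of 12 small subunit genes rose, with median log2 fold changes of 0.39 and 0.41. At the middle level the counts were 6 of 12 and 8 of 13, with medians of 0.25 and 0.34. The 26 highest members were 22 large subunit genes, of which 2 rose and 4 fell (median 0.00), and 4 small subunit genes, of which 2 rose (median 0.08). Protein-coding genes in these ranges had medians of 0.39, 0.28 and 0.11 from the lowest to the highest level. With size factors, 5 of 13 large and 4 of 12 small subunit genes were called higher at the lowest level, but 0 of 12 large and 5 of 13 small at the middle level. At the highest level 0 were then higher, and the 9 called lower were all large subunit genes. The part of level in the difference between the subunits was not tested.

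**Figure D3:**
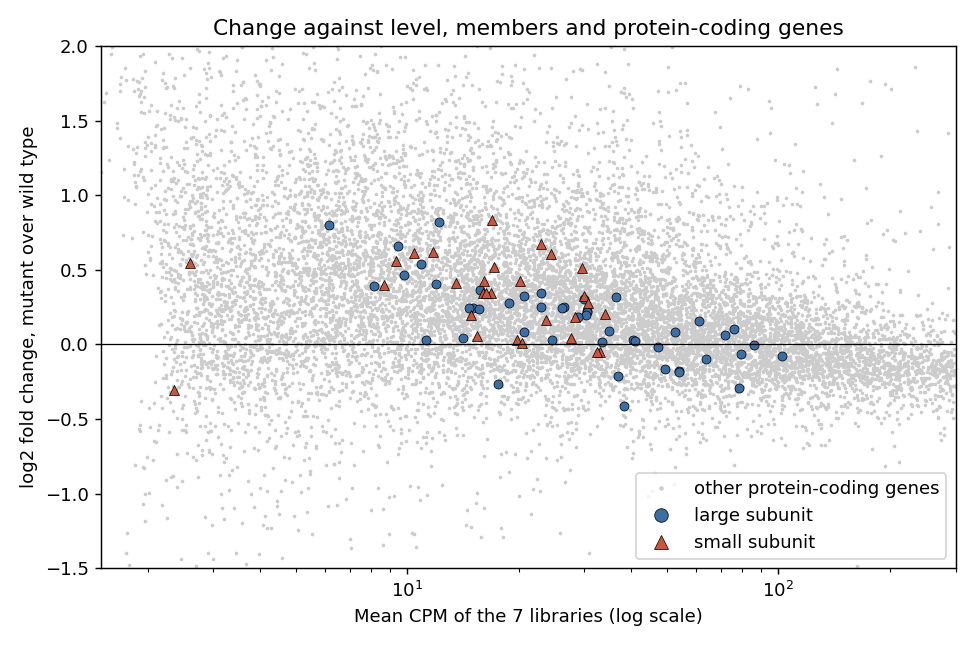
The log2 fold change of each gene, mutant over wild type, against its mean CPM over the 7 libraries on a log scale, with large subunit genes as blue circles, small subunit genes as red triangles and 13708 other protein-coding genes in grey, of which 764 lie outside the axes. Members above 30.5 CPM are mostly large subunit genes and scatter around 0, and most members under 16.3 CPM lie above 0.

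In each subunit the largest calls named below were taken from members without overlap between the groups, so that separation was fixed by the choice. Among the small subunit genes, Mrps6 had the largest change. Its protein is the counterpart of bacterial S6. Its CPM was 11.8, 12.1, 13.3 and 13.4 in wild type 1 to 4 and 23.7, 21.8 and 22.2 in mutants 1, 2 and 4. No library of one group reached the other, and the log2 fold change was 0.83 ± 0.07 (SE, limma FDR 1.04e-06), or 0.70 with size factors. Mrps6 lies on chromosome 16 (91854965 to 91909592, GRCm39). Slc5a3 and Gm49711, both on the same strand, together cover 17.02% of its exon bases, so the reads of Mrps6 may be split among them.

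Mrps7, the counterpart of bacterial S7 in the head of the small subunit, stood at 18.6, 18.1, 18.0 and 18.6 CPM in wild type and 30.1, 28.2 and 29.3 CPM in the mutants. The groups were far apart for a spread this small, 18.3 ± 0.319 (SD, n = 4) against 29.2 ± 0.976 (SD, n = 3), a log2 fold change of 0.67 ± 0.06 (SE, limma FDR 9.143e-07). Of its exon bases 57.8% lie in other genes on the opposite strand, Mif4gd and Gga3.

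Mrps27 encodes a pentatricopeptide repeat protein of the small subunit, and was measured at 8.74, 9.85, 10.7 and 8.79 CPM in wild type and 14.1, 15.2 and 14.7 CPM in the mutants. Mrps24, the counterpart of bacterial S3, was at 10.1, 8.36, 8.46 and 7.24 CPM and at 12.6, 13.5 and 12.9 CPM. Mrps23, a protein found only in mitochondria, was at 21.4, 18.8, 19.96 and 19.6 CPM and at 28.7, 30.3 and 32.1 CPM. In all 3 genes the groups did not overlap, and the log2 fold changes were 0.62 ± 0.09, 0.61 ± 0.11 and 0.61 ± 0.07 (SE, limma FDR 6.782e-05, 0.0002527 and 6.959e-06). Mrps34, another mitochondria-specific small subunit protein, was at 7.36, 8.01, 7.94 and 7.51 CPM in wild type and 12.3, 11.3 and 10.7 CPM in the mutants. Its log2 fold change was 0.56 ± 0.09 (SE, limma FDR 0.0001145), but 86.1% of its exon bases are shared with Nme3 on the same strand or with Eme2 and Mapk8ip3 on the other, so its reads may be split among them.

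Mrps12, the counterpart of bacterial S12, which helps to check that the right tRNA has paired with the mRNA, was at 20.3, 17.8, 16.7 and 15.6 CPM in wild type and 24.0, 23.1 and 23.5 CPM in the mutants. The wild types spread more widely than the mutants, and the groups did not overlap. Its log2 fold change was 0.42 ± 0.09 (SE, limma FDR 0.00089), and with size factors it was 0.29 and was not called (FDR 0.0106). The 10 small subunit genes that were not called included Mrps18b, Mrps18c and Mrps36.

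There are 3 genes named after bacterial S18, of which Mrps18c encodes the protein in its place and the other two encode related proteins counted here as mitochondria-specific. Mrps18a rose from 28.2 ± 0.9991 CPM (SD, n = 4) to 34.2 ± 1.79 CPM (SD, n = 3), a log2 fold change of 0.27 ± 0.06 (SE, limma FDR 0.001441) that was not called with size factors (0.14). Mrps18c was at 13.98 ± 1.04 and 16.0 ± 0.258 CPM, above the wild type in every mutant but not called (0.20, limma FDR 0.03974). Mrps18b was at 15.2 ± 1.12 and 15.8 ± 1.09 CPM, with overlapping groups and a log2 fold change of 0.06 (limma FDR 0.5783) that became -0.08 with size factors. Genes on the opposite strand cover 27.9% of the exon bases of Mrps18a, 38.4% of Mrps18b and 78.25% of Mrps18c. The difference among the 3 paralogs was not tested.

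Among the large subunit genes, Mrpl34, the counterpart of bacterial L34, was at 9.04, 8.80, 9.80 and 9.001 CPM in wild type and 15.5, 16.7 and 16.5 CPM in the mutants. Every mutant was far above every wild type, with a log2 fold change of 0.82 ± 0.08 (SE, limma FDR 1.762e-06) and 0.68 with size factors. The gene is short (chromosome 8, 71917555 to 71918396), and 81.4% of its exon bases lie under a lncRNA, Gm64263, on the opposite strand. Whether the counting used strand is not given in the sources used here, and without strand such pairs cannot be told apart.

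Mrpl27, the counterpart of bacterial L27, which lies near the site where peptide bonds form, was at 3.80, 5.30, 4.63 and 4.90 CPM in wild type and 7.96, 9.54 and 7.03 CPM in the mutants. The groups did not overlap, and the log2 fold change was 0.80 ± 0.14 (SE, limma FDR 0.000265). A processed pseudogene, Mrpl27-ps, was also in the table, with 4.14 ± 0.226 CPM in wild type and 4.17 ± 0.729 CPM in the mutants. Mrpl50, a mitochondria-specific protein, was at 7.63, 7.20, 8.10 and 7.16 CPM and at 10.6, 12.2 and 13.1 CPM. Mrpl58, a release factor homolog built into the large subunit, also named ICT1, that frees chains from stalled ribosomes, was at 10.4, 9.001, 8.49 and 8.44 CPM and at 12.9, 14.5 and 12.3 CPM. The groups did not overlap in either, and the log2 fold changes were 0.66 ± 0.10 and 0.54 ± 0.10 (SE, limma FDR 7.604e-05 and 0.0004136).

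Mrpl19, the counterpart of bacterial L19 at the face between the subunits, rose from 8.41 ± 0.452 CPM (SD, n = 4) to 11.6 ± 0.386 CPM (SD, n = 3), a log2 fold change of 0.46 ± 0.08 (SE, limma FDR 0.0003868). Gcfc2 on the opposite strand covers 35.59% of the exon bases of Mrpl19. Mrpl44, which has a fold like that of RNase III, rose from 10.5 ± 0.691 to 13.9 ± 0.806 CPM, 0.40 ± 0.08 (SE, limma FDR 0.001028). With size factors Mrpl44 was 0.27 and just missed the threshold (FDR 0.01064).

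The 5 members that fell were all large subunit genes. Mrpl15, the counterpart of bacterial L15, was at 41.6, 43.7, 41.4 and 44.95 CPM in wild type and 31.6, 32.96 and 32.0 CPM in the mutants. The groups were well apart, and the log2 fold change was -0.41 ± 0.05 (SE, limma FDR 2.617e-05), or -0.55 with size factors. None of its exon bases lies in another annotated gene (chromosome 1, 4843429 to 4855972).

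Mrpl54, a mitochondria-specific protein, was at 88.2, 87.6, 83.0 and 81.4 CPM in wild type and 72.1, 68.1 and 68.5 CPM in the mutants. Its log2 fold change was -0.29 ± 0.05 (SE, limma FDR 0.0002015), without overlap between the groups. Matk on the opposite strand covers 94.4% of its exon bases.

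The other 3 were called with all libraries but not with every library left out. Mrpl22, which lines the exit tunnel for the new chain, was at 21.2, 18.0, 18.3 and 18.1 CPM in wild type and 15.2, 16.4 and 15.4 CPM in the mutants. Its log2 fold change was -0.27 ± 0.08 (SE, limma FDR 0.009115), wild type 1 stood above the other wild types, and the call was lost with any 1 library left out (-0.21 without wild type 1). A lncRNA on the opposite strand, Gm73594, covers 22.83% of the exon bases of Mrpl22. Mrpl55, the counterpart of bacterial L31, was at 39.1, 39.2, 38.95 and 39.9 CPM and at 36.0, 32.7 and 33.3 CPM (-0.21 ± 0.05, limma FDR 0.004594). Mrpl57, a mitochondria-specific protein, was at 60.2, 56.2, 55.7 and 56.3 CPM and at 50.9, 48.9 and 50.9 CPM (-0.18 ± 0.05, limma FDR 0.005897). Neither overlapped between groups, Mrpl55 was called in 3 and Mrpl57 in 2 of the 7 fits with 1 library left out, and leaving out wild type 1 or 2 or mutant 2 or 4 ended the calls of both (the call of Mrpl57 also without mutant 1).

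**Figure D4:**
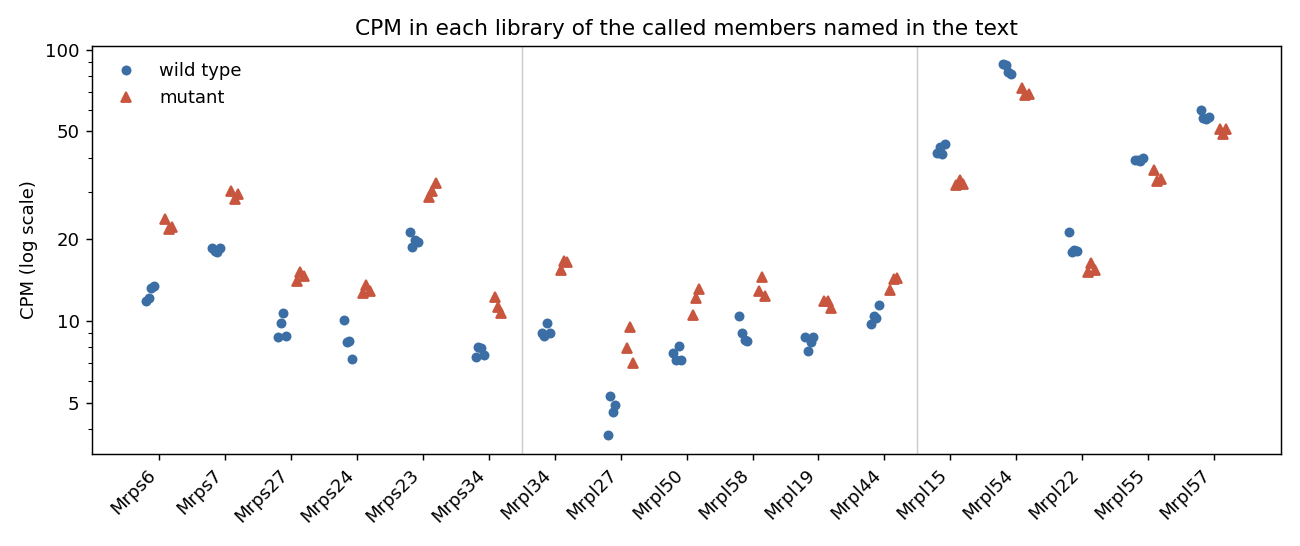
CPM on a log scale in each of the 4 wild-type libraries (blue circles) and 3 mutant libraries (red triangles) for 17 called members, from left to right small subunit genes that rose, large subunit genes that rose and large subunit genes that fell. The 17 genes were taken from called members without overlap between the groups, so the gap in each follows from the choice. The genes that fell lie between 15.2 and 88.2 CPM, mostly above those that rose.

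Other members of known role or extreme level did not pass the test. Mrpl12, a stalk protein that also binds the mitochondrial RNA polymerase, was at 65.7 ± 1.80 CPM (SD, n = 4) and 61.3 ± 1.52 CPM (SD, n = 3), a log2 fold change of -0.10 (limma FDR 0.08205) that was called lower with size factors (-0.23, limma FDR 0.000962). Mrps30 was at 20.3 ± 0.879 and 20.5 ± 0.864 CPM (0.01, limma FDR 0.8969), and -0.12 with size factors. Mrps36 was at 2.57 ± 0.448 and 2.06 ± 0.398 CPM (-0.30 ± 0.18, limma FDR 0.1633), and 2 of its pseudogenes, to which reads may be assigned, were also in the table.

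Per kb of the canonical transcript, Mrpl20 (106.0 CPM per kb) and Mrpl38 (49.6 CPM per kb) were the most abundant members in wild type. Mrpl20, the counterpart of bacterial L20, was at 81.0 ± 3.08 CPM and 77.4 ± 2.39 CPM in wild type and mutant, and Mrpl38, a mitochondria-specific protein, at 70.3 ± 3.80 CPM and 73.5 ± 2.60 CPM, with overlap and no call in either. With size factors Mrpl20 was called lower (-0.20, limma FDR 0.002364) and Mrpl38 became -0.07. At the other end were Mrpl19 (1.68 CPM per kb) and Mrps35 (1.82 CPM per kb). Mrps35, a mitochondria-specific protein, rose from 7.63 ± 0.369 to 10.1 ± 0.462 CPM (0.40 ± 0.09 SE, limma FDR 0.001538), and 0.27 with size factors was not called.

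Many of these genes are packed close to others. In the annotation 59 of the 76 share exon bases with another gene, 56 with one on the opposite strand, and in 22 over 20% of the exon bases are shared. Among the 54 with at most 20% shared, 28 rose and 3 fell, and 10 rose under both scalings. For 15 members a protein-coding gene on the opposite strand started within 1000 bp upstream of the member's start, or just past it. Other kinds of gene were not counted as partners. Among the 15 partners 6 were called higher and 1 lower, beside 41.5% and 12.7% of all protein-coding genes tested. Mrpl46 and Mrps11, a large and a small subunit gene on chromosome 7, are each other's partner with starts 30 bp apart. Their log2 fold changes were close, 0.20 ± 0.06 for Mrps11 and 0.24 ± 0.08 for Mrpl46 (SE, limma FDR 0.006494 and 0.02447). The call of Mrps11 was lost with size factors (limma FDR 0.2942) and when wild type 2 or 4 or mutant 1 or 4 was left out. Member and partner were both called higher in 3 pairs, and in 0 pairs with size factors. Whether 3 pairs exceed what the separate shares of members and partners give was not tested. Mrps12 and Sars2, the mitochondrial serine tRNA synthetase, start 129 bp apart, and Sars2 rose (0.44, limma FDR 0.0005768) and kept its call with size factors, while Mrps12 did not. The other pairs were Mrpl14 with Tmem63b and Mrpl43 with Twnk, the mitochondrial DNA helicase. In all 3 pairs member and partner share exon bases on opposite strands. Sars2 covers 19.28% of the exon bases of Mrps12, and Tmem63b covers 23.68% of those of Mrpl14. Twnk and Sema4g together cover 55.32% of those of Mrpl43. Mrpl46 and Mrps11 also share exon bases. If the counting did not use strand, reads in the shared bases cannot be told apart. With 1 library left out, Mrpl14 was called in 2 and Mrpl43 in 1 of 7 fits, Mrpl14 without wild type 4 or mutant 4 and Mrpl43 without wild type 1. Lrrc46, beside Mrpl10, fell (-0.44, limma FDR 9.529e-06), while Mrpl10 was not called, and no pair was called in opposite directions.

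The proteins that a mitochondrial ribosome needs beside the Mrpl and Mrps products were described from lists of known genes. Of 5 ribosomal proteins without such a symbol, 1 rose, Gadd45gip1, from 9.16 ± 0.631 CPM (SD, n = 4) to 14.2 ± 0.404 CPM (SD, n = 3), a log2 fold change of 0.63 ± 0.08 (SE, limma FDR 2.859e-05). Dap3, a GTP-binding small subunit protein, was at 196.0 ± 2.77 and 200.7 ± 1.43 CPM (0.03, limma FDR 0.43), with overlapping groups. Ptcd3, Chchd1 and Aurkaip1 were not called (0.15, 0.21 and -0.02, limma FDR 0.03493, 0.01469 and 0.771).

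Of 27 assembly genes 13 rose and 1 fell (median 0.26). Mrm2, a methyltransferase of the large rRNA, was highest at 0.86 ± 0.19 (SE, limma FDR 0.001451), from 2.00 to 3.74 CPM, and was not called without mutant 2 (0.68). Nsun4, which methylates the small rRNA and helps to join the subunits, fell from 318.8 ± 12.3 to 246.6 ± 8.79 CPM (-0.37 ± 0.04 SE, limma FDR 1.017e-05). Of 14 translation factor genes 7 rose and 0 fell (median 0.38), with Taco1, the activator of COX1 translation, highest at 0.71 ± 0.14 (SE, limma FDR 0.0007645) and Tufm, the elongation factor, not called (0.07, limma FDR 0.5321).

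Of 17 tRNA synthetase genes 8 rose and 1 fell (median 0.30). Iars2, for isoleucine, rose from 34.6 ± 2.52 to 58.0 ± 1.20 CPM (0.75 ± 0.06 SE, limma FDR 4.862e-07), and Mars2, for methionine, fell (-0.22 ± 0.06 SE, limma FDR 0.007169). The call of Mars2 was lost without wild type 2, wild type 3 or mutant 1 (-0.26 to -0.16 over all fits with 1 library left out). Of 18 transcription and RNA stability genes 9 rose and 1 fell (median 0.24). Hsd17b10, a subunit of mitochondrial RNase P, rose from 9.78 ± 0.672 to 22.1 ± 1.21 CPM (1.17 ± 0.08 SE, limma FDR 9.77e-08). Tfam, which packs mitochondrial DNA and starts its transcription, fell from 205.0 ± 19.02 to 156.9 ± 9.32 CPM (-0.38 ± 0.07 SE, limma FDR 0.0002698). With size factors the counts were 1 higher and 0 lower (ribosomal proteins without such a symbol), 7 and 2 (assembly), 5 and 1 (factors), 6 and 2 (synthetases) and 3 and 2 (transcription and RNA stability). Among protein-coding genes 41.5% rose and 12.7% fell, and 31.1% and 23.6% were called with size factors. The median wild-type level was 9.97 CPM for assembly, 9.34 for factors and 13.65 for synthetases. Of protein-coding genes at 2.35 to 16.8 CPM, 50.1% rose and 4.85% fell (median 0.39).

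The families most like the members were counted the same way. Of 72 cytosolic ribosomal protein genes 31 rose and 2 fell, with a median log2 fold change of 0.27, and 22 and 4 were called with size factors. Of 83 nuclear genes for respiratory chain and ATP synthase subunits 33 rose and 4 fell, with a median of 0.13, and 16 and 19 were called with size factors. With CPM, the members' 36 of 76 and median of 0.22 lay near both, beside 41.5% of protein-coding genes called higher and 12.7% lower. With size factors 18.4% of the members were higher and 13.2% lower. The shares were then 30.6% and 5.56% for the cytosolic family and 19.3% and 22.9% for the respiratory family. No difference between the families was tested.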

How the data were processed

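Whole testis RNA-seq of 4 wild-type and 3 Iqch mutant mice was used, 1 library per mouse. The deposited file holds CPM, made by the authors from gene counts and summing to 1000000 per library. Trimmomatic was their trimmer, Subread their aligner (to GRCm39) and featureCounts their counter, and a gene stayed in if at least 2 samples of a group had 75 or more of its reads. The strand setting and annotation release are not given in the sources used here. The same sources give edgeR and DESeq2 for the authors' calls, which were not used. Each CPM was a whole multiple of 1 step per library (tolerance 0.01), read as 1 read. No libraries were duplicates.

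Tests used limma 3.58.1 (lmFit, eBayes with a trend) in R 4.3.3 on log2(CPM + 0.1), so fold changes of low genes are understated. Genes needed 2.2 CPM in 2 samples of a group, which left out 1, and all 76 members passed. P-values were adjusted by Benjamini-Hochberg over 17126 genes, and genes were called at an FDR of 0.01. The fit was tested on simulated data with few changed genes, as many higher as lower. Such data do not cover a shift between scalings. Symbols, coordinates and sequences came from GENCODE M39 on GRCm39 (17045 genes found, 82 not). Other steps used Python 3.11.15, NumPy 2.4.6, pandas 2.3.3 and matplotlib 3.10.9.

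Named members are, per subunit, the 6 largest non-overlapping calls in each direction, Mrps18a, Mrps18b, Mrps18c, Mrpl12, Mrpl58, Mrps12, Mrps36 and Mrps30, and the 2 highest and 2 lowest per kb; named genes of other lists are the largest call in each direction, with Dap3, Ptcd3, Chchd1, Aurkaip1, Gadd45gip1, Tufm and Tfam. Neighbouring genes, Mrps33 and the genes listed by the scaling were named after their values were seen. Members and lists were chosen with earlier results of these data known. Per-kb levels use the canonical transcript.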

Additional observations from a re-analysis of the deposited data

Results flagged for a closer look

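A gap test in the 4 wild-type libraries (the gap of 1 library to its nearest neighbour over the group's range, above Dixon's critical value) marked 4 of the 76 members, and chance alone marks about 1 in 20 groups. Among the named members, wild type 1 stood high for Mrpl22 (gap 0.901) and for Mrpl57 (gap 0.871), whose log2 fold changes were -0.21 and -0.16 without that library, both no longer called. Wild type 4 stood low for the summed CPM of all members (gap 0.952) and of the large subunit genes (gap 0.911), at 2090 and 1580 CPM beside 2149 to 2152 and 1631 to 1636 CPM in the other wild types. Wild type 1 stood high for the mean log2(CPM + 0.1) of the small subunit genes (gap 0.930). Wild type 4 stood high for Gadd45gip1 (gap 0.850, 10.1 CPM beside 8.71 to 8.92), Hsd17b10 (gap 0.872, 10.8 CPM beside 9.37 to 9.55) and Dap3 (gap 0.960, 200.2 CPM beside 194.5 to 194.7). In Gadd45gip1 and Hsd17b10 the mutants were above wild type 4 too.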

How the results depend on the processing

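With size factors the members called higher went from 36 to 14 and those called lower from 5 to 10, the large subunit genes called higher from 17 to 5 and the small from 19 to 9. Same-numbered libraries did not deviate together (r 0.0261, 0.00940 and -0.0977). So few pairs cannot show whether a replicate number stands for a shared batch, and the labels name none. With the replicate number as a block, 26 members were called higher and 2 lower, and 11 large subunit genes higher, and Mars2 was no longer called (FDR 0.0168). With size factors and that block together, an alternative chosen after seeing the data, 12 members, 4 large and 8 small, were called higher. Leaving out 1 library gave 29 to 33 members higher. It gave 2 to 5 members lower, with 2 or 3 without wild type 1, wild type 2, mutant 1, mutant 2 or mutant 4. The members' median minus that of all genes was 0.0996, and 0.076 to 0.112 with 1 library left out, lowest without mutant 1. The large minus small difference in medians was -0.173 with a pseudocount of 1, -0.164 with the block, -0.165 with block and size factors, -0.218 with genes placed by protein, and -0.253 (without mutant 1) to -0.163 (without mutant 2) with 1 library left out. Signs turned for Mrps18b (-0.079 by size factors, -0.126 with the block too), Mrps30 (-0.123, -0.118, and -0.015 without wild type 1 or without mutant 4, in a range of -0.015 to 0.045) and Mrpl38 (-0.07, -0.068), none of them called. Except where size factors shift all genes, the cause was not tested. No minimum, a minimum of 5 CPM, a pseudocount of 0.01 and sample weights changed the call of none of the 27 named members, of which 26 could be compared at 5 CPM. The planned edgeR fit on recovered reads was not run. The lowest member, Mrps33, had 2.15 CPM in wild type, and the 3 mutants limit which small changes can be called.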

Other observations

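Pseudogenes of the family in the table did not move as one. Mrpl23-ps1 rose from 5.23 ± 0.636 CPM (SD, n = 4) to 8.90 ± 0.317 CPM (SD, n = 3), a log2 fold change of 0.76 ± 0.11 (SE, limma FDR 7.558e-05). Mrpl48-ps fell from 17.1 ± 0.390 to 11.1 ± 0.907 CPM (-0.62 ± 0.08 SE, limma FDR 1.788e-05), while its parent gene Mrpl48 was among the members that rose. Mrpl27-ps, Mrps36-ps1 and Mrps36-ps2 were not called. Reads can be split between a gene and such copies, and these genes were chosen after their values were seen.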
